A study of Mus musculus with 14 samples.

Results

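Immediate early genes and the activation genes that accompany them were compared in mast cells sorted from mouse ear skin. The set held 39 genes, chosen by name from the AP-1, Egr, Nr4a, Klf, Dusp, Ier, Zfp36 and Btg families and from related early genes, of 55487 genes in the count table. It comprised 9 genes of the AP-1 group, 3 Egr, 3 Nr4a, 3 Klf, 5 Dusp and 4 Ier genes, 4 genes of the Zfp36 and Btg families and 8 others. No threshold on measured values was used. All but Arc, an early gene best known from neurons, passed the filter on low counts, so 38 were tested among 21014 genes.

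MC903 is calcipotriol, a vitamin D analogue that causes a dermatitis resembling atopic dermatitis when applied to mouse skin. Per the labels, 5 libraries came from resident mast cells of untreated mice (libraries 1 to 5), 5 from resident mast cells of mice treated with MC903 (libraries 6 to 10) and 4 from treated mice whose label reads bone marrow mast cells (libraries 11, 13, 14 and 15). Each library was made from at most 100 cells from both ears. The protocol names resident and integrin β7-positive mast cells only, so the bone marrow label is used here as given. The labels give no strain, age, sex or genotype, nor the dose or duration of MC903, and tie no library to a mouse, so the p-values measure only the spread between libraries, which may in part be technical.

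Immediate early genes need no new protein for their transcription. Signals that raise calcium, activate MAP kinases or raise cyclic AMP reach factors already present on their promoters, mainly serum response factor with its ternary complex partners and CREB, and the transcripts appear and decay quickly. Many of the products are transcription factors that switch on later genes, and others, such as dual-specificity phosphatases and RNA-decay proteins, shut the signal off. In mast cells, crosslinking of the IgE receptor and ligand binding to KIT induce them ahead of cytokine transcripts. Enzymatic digestion of skin and cell sorting are also known to induce these genes, and no library taken without them was analysed here.

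The early genes were abundant in all groups. Ranked per length as RPKM (the TMM-scaled CPM defined below, divided by exon length) averaged over the 14 libraries, Fos led at 2642, in the 99.9th percentile of the genes tested. Nr4a1 followed at 1365, then Junb at 1276 and Dusp1 at 1216. At the other end, Ier5l stood at 0.137, Maff at 0.841 and Fosl1 at 1.2. Summed over the 39 genes on the same TMM-scaled CPM, early transcripts came to 4.54% to 7.19% in the untreated libraries, 2.38% to 4.47% in the MC903 resident libraries and 2.28% to 3.61% in the bone marrow libraries. The untreated libraries thus lay above every other library in this sum. The mitochondrial share of counts also separated them, at 1.22% to 1.70% in untreated and 2.14% to 4.24% in all other libraries, and its part in the early gene differences was not tested. In bulk libraries of this kind, fewer cells with a high level and less RNA per cell cannot be told apart.

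Levels below are CPM, counts scaled to the library total and by TMM (trimmed mean of M-values). Genes were called at a Benjamini-Hochberg adjusted p under 0.05 in edgeR's quasi-likelihood test over all 21014 genes. Over the 3 groups, 19 of the 38 members differed, against 7.25% of all genes. In MC903 resident against untreated resident cells 8 members were called, against 2.25% of all genes, and all 8 were lower, against 1.68% of all genes called lower and 0.571% called higher. Between bone marrow and MC903 resident cells 9 were called (2.27% of all genes), 4 higher (1.32%) and 5 lower (0.952%). Between bone marrow and untreated resident cells 17 were called (6.87%), 3 higher (3.49%) and 14 lower (3.37%). These comparisons share libraries, so their counts are not independent of each other. The called shares of all genes, here and below, are not matched to the members' level. In a fit to the 8209 genes averaging at least 10 CPM, larger shares of genes were called. It called 646 in MC903 resident against untreated cells (309 higher), with 9 members (0 higher). Between the MC903 groups it called 558 (265 higher), with 10 members (4 higher). In bone marrow against untreated cells it called 1763 (950 higher), with 20 members (4 higher).

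The median log2 fold change of the members was -0.65 in MC903 resident against untreated cells, where that of all genes was 0.24. Of the 38 members 32 were below 0, against 40.0% of all genes. Against MC903 resident cells the bone marrow median was -0.11, where that of all genes was -0.28, and against untreated cells it was -0.81, where that of all genes was -0.14. Both bone marrow comparisons include library 15, which departed from the rest of its group. Its median log2 difference from the other bone marrow libraries was 0.53 over all genes and -0.27 over the members. With scaling by DESeq2 size factors the median of all genes moved to 0.40 in the first comparison and -0.43 in the second, and the members' median relative to it was -0.88 instead of -0.90 in the first and 0.19 instead of 0.16 in the second. Libraries of the groups did not overlap for 12 members that were lower in MC903 resident than in untreated cells (3.16% of all genes) and for 0 members that were higher (2.17%), where 5.33% of all genes did not overlap in either direction. Bone marrow libraries lay apart from MC903 resident ones for 5 members that were higher (3.97%) and 4 that were lower (4.32%; 8.29% either way), and from untreated ones for 15 members that were lower (5.28% of all genes) and 4 that were higher (5.13%; 10.4% either way).

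**Figure D1:**
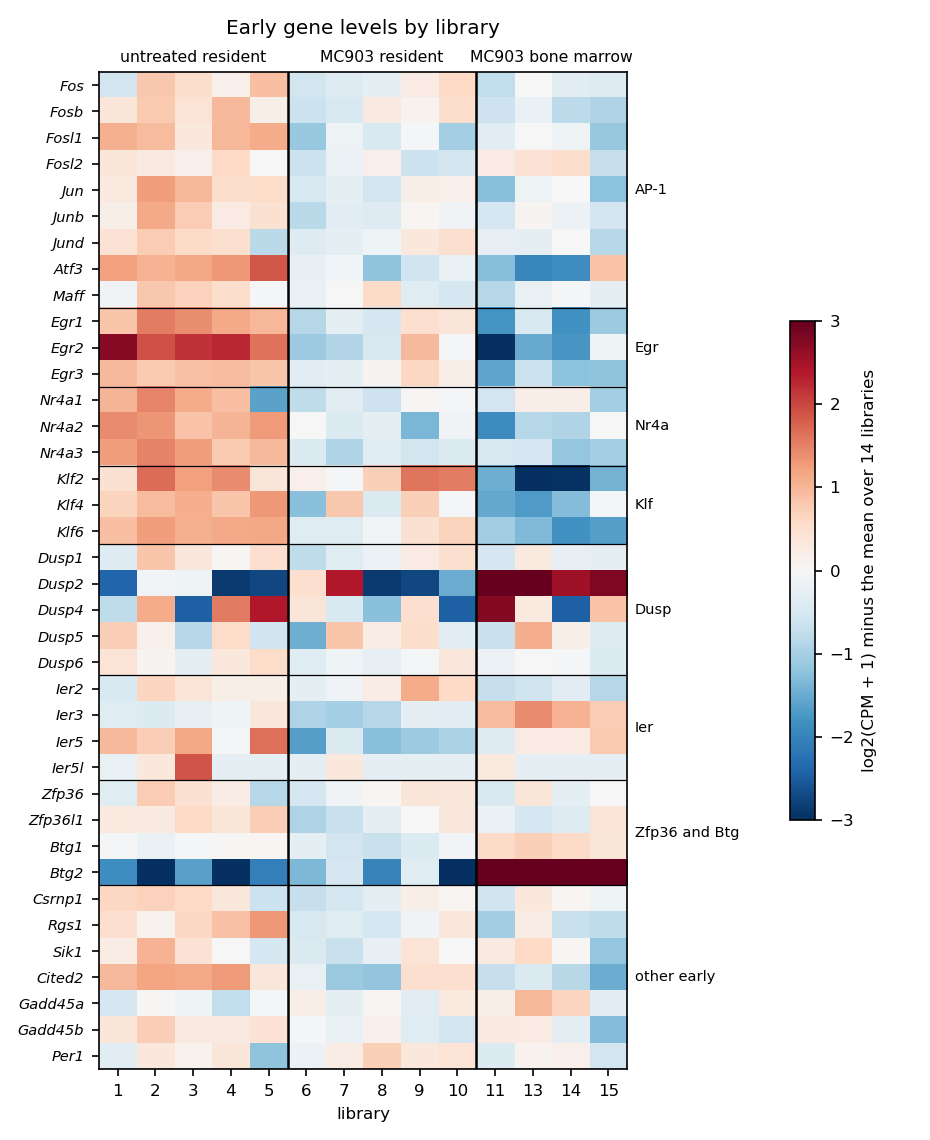
Level of the 38 tested members in each of the 14 libraries, as log2(CPM + 1) minus the gene's mean over the libraries. Rows are genes ordered by family, columns are libraries ordered by group, and color beyond 3 in either direction is saturated. Most rows of the Egr, Nr4a and Klf families are red in the untreated libraries, while Ier3, Btg1, Btg2 and Dusp2 are red in the bone marrow libraries.

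**Figure D2:**
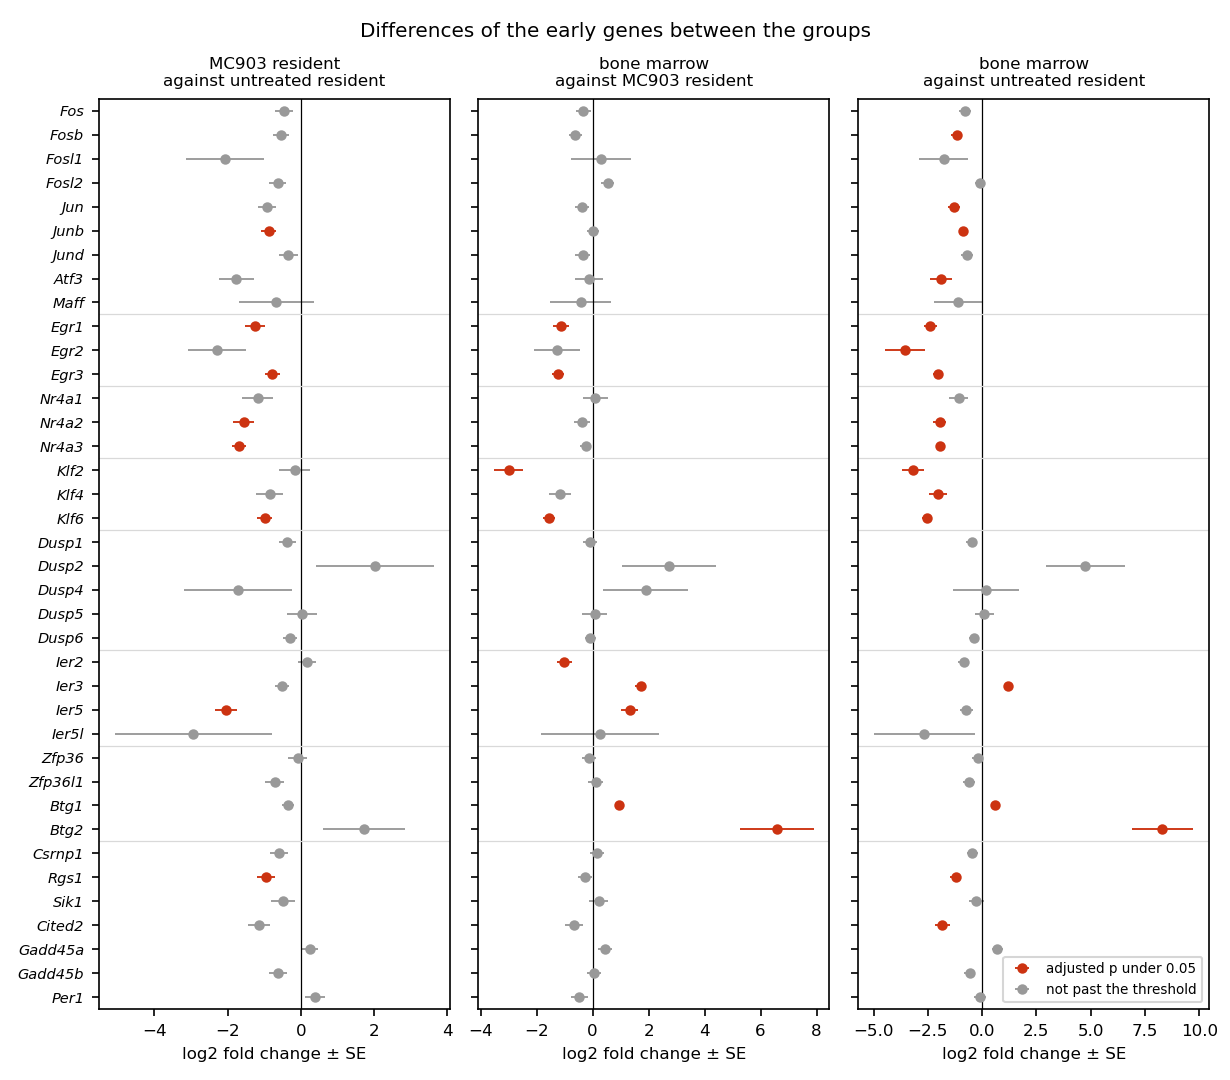
Log2 fold change of the 38 tested members in the 3 comparisons, from the edgeR fit over all genes. Points are estimates, bars are ± 1 SE, red marks an adjusted p under 0.05, and the x axes differ in range between the panels. In the left panel the 8 red points all lie below 0.

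The sequence before the start site is shown for 6 of the members with the clearest differences, because their promoters differ in a short motif that early genes often carry. RefSeq promoter windows (GRCm38.p6, 250 bases before to 50 after the start) matched 31 of the 39 members. No window was found for Arc, Dusp4, Egr1, Egr3, Fosl1, Ier2, Rgs1 and Sik1. The cyclic AMP response element (TGACGTCA, bound by CREB and ATF proteins) was searched in full and as its core TGACG, which is part of the full site, on both strands. The core was present in 18 of the 31 members (58.1%), against 23.0% of all genes with a window, and the full site in 3 (Btg2, Dusp1 and Maff), against 2.03%. A gene with several windows was counted once if any of them matched. Each Nr4a promoter held 4 cores. Sequences run 5′ to 3′ on the gene's strand and stop before the first annotated transcribed base, and capitals mark TGACG or its reverse complement CGTCA. They cover chr2:57124004-57124253, minus strand (Nr4a2), chr4:48045055-48045152, plus strand (Nr4a3, with 3 of its 4 cores), chr13:5861239-5861481, plus strand (Klf6), chr8:72318812-72319032, plus strand (Klf2), chr17:35821463-35821683, plus strand (Ier3) and chr1:134079156-134079405, minus strand (Btg2).
Nr4a2: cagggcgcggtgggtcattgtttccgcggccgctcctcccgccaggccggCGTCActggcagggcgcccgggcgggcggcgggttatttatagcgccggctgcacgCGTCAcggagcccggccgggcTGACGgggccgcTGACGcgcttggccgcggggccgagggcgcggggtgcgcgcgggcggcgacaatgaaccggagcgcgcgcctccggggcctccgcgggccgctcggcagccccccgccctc
Nr4a3: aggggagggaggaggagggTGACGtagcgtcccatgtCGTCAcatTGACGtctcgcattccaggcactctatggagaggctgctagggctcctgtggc
Klf6: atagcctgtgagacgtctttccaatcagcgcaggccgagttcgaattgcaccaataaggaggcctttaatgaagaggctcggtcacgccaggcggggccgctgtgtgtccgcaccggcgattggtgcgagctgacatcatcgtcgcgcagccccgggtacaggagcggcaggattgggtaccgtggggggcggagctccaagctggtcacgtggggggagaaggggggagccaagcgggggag
Klf2: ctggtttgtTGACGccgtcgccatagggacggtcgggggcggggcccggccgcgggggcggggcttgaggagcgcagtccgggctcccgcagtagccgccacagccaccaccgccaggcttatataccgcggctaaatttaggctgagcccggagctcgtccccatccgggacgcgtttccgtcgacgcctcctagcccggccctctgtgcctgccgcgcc
Ier3: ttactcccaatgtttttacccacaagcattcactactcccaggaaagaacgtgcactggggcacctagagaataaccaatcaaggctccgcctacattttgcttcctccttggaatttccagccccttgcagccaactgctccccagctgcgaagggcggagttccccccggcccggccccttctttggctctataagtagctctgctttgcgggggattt
Btg2: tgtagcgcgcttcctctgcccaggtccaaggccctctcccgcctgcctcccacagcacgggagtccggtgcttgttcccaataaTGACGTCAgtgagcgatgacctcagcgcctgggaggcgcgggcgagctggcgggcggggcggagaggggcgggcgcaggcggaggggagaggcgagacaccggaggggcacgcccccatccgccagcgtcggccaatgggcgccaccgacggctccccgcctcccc

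The core motif occurred in members of either direction. It was present in 8 of the 11 members with a window that were lower in bone marrow than in untreated cells, in 2 of the 3 that were higher and in 8 of the 17 that were not called. Klf6, lower in every comparison, and Ier3, higher in bone marrow cells, both had none, and Btg2, higher in bone marrow cells, had the full site. A site for Egr proteins (GCGNGGGCG) was present in 11 of the 31 members (35.5%), against 6.27% of all genes with a window, a CArG box (the site of serum response factor) in 3 (Dusp5, Egr2 and Zfp36; 9.68% against 1.81%), an AP-1 site (TGANTCA) in 2 (6.45% against 8.97%) and the Nr4a monomer site AAAGGTCA in 0 (against 1.7%). The members' windows were also richer in G and C (median 63.7% against 52.7%) and in CG pairs (median 23 against 7), and the part of base composition in these shares was not tested. Matches are letters in a window and not shown to be bound. Sites further than 250 bases before the start were not searched.

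The Nr4a genes encode orphan nuclear receptors whose activity follows their abundance, and they are among the genes most quickly induced by antigen receptors. Nr4a3 (ENSMUSG00000028341.9, GRCm38 chromosome 4, 48045153 to 48086447, transcribed from the plus strand) was at 842, 998, 849, 605 and 689 CPM in untreated, 264, 188, 276, 242 and 266 CPM in MC903 resident and 255, 249, 157 and 177 CPM in bone marrow libraries. Every untreated library lay above all others, and the MC903 resident and bone marrow libraries overlapped. Nr4a3 fell by 1.69 ± 0.189 (SE) on the log2 scale in MC903 resident cells, 3.22-fold (edgeR adjusted p = 2.78e-05), and by 1.93 ± 0.207 (SE) in bone marrow cells (4.75e-06), both against untreated cells. Between bone marrow and MC903 resident cells it did not pass the threshold (edgeR adjusted p = 0.558).

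Nr4a2 (ENSMUSG00000026826.13, GRCm38 chromosome 2, 57106830 to 57124003, transcribed from the minus strand) showed the same separation, at 731, 679.8, 491, 551 and 659 CPM in untreated, 269, 205, 221, 105 and 253 CPM in MC903 resident and 73.0, 150.4, 146 and 272 CPM in bone marrow libraries. Its lowest untreated value was above every other library, and library 9 was the lowest of the MC903 resident libraries. Nr4a2 fell 2.96-fold in MC903 resident cells, a log2 change of -1.56 ± 0.282 (SE) (edgeR adjusted p = 0.00284), and 3.88-fold in bone marrow cells, with -1.96 ± 0.309 (SE) (0.000313). The calls of Nr4a2 and Nr4a3 against untreated cells stood in all 14 fits that each left out 1 library.

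Nr4a1 (ENSMUSG00000023034.7, GRCm38 chromosome 15, 101254269 to 101274795, transcribed from the plus strand), the most abundant of the family per length, was at 8202, 11044, 8706, 7570.3 and 1318 CPM in untreated, 2367, 3248, 2599, 4140.0 and 3907 CPM in MC903 resident and 2725, 4637, 4605 and 1989 CPM in bone marrow libraries. Untreated libraries 1 to 4 were above all others, whereas untreated library 5 was the lowest of the 14. The differences from untreated cells, -1.18 ± 0.423 (SE) for MC903 resident and -1.08 ± 0.453 (SE) for bone marrow cells on the log2 scale, did not pass the threshold (edgeR adjusted p = 0.208 and 0.183). Without library 5 both did (edgeR adjusted p = 0.00172 and 0.00191), with log2 fold changes of -1.45 and -1.35. In DESeq2 the second also passed with all libraries (0.033). In library 5 Nr4a2 and Nr4a3 stayed within the range of the other untreated libraries.

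The Egr genes encode zinc finger factors that read out ERK and calcium signals. Egr1 was at 4778, 7781, 7073, 5843 and 5328 CPM in untreated, 1483, 2221, 1877, 3779 and 3458 CPM in MC903 resident and 774, 1932, 764 and 1254 CPM in bone marrow libraries. All untreated libraries lay above the other groups, and the bone marrow libraries overlapped with the MC903 resident ones only through library 13. Egr1 fell by 1.26 ± 0.269 (SE) on the log2 scale in MC903 resident cells (edgeR adjusted p = 0.0108) and 5.22-fold in bone marrow cells (-2.38 ± 0.304 (SE); 3.45e-05), both against untreated cells. Between the MC903 groups it was lower in bone marrow cells, with -1.12 ± 0.289 (SE) on the log2 scale (edgeR adjusted p = 0.0433), a call lost without library 3, 5, 7, 9, 10, 11, 14 or 15 (up to 0.16), with no filter on low counts (0.223), in edgeR fitted to these 2 groups (0.0742) and in limma (0.0845). The call in MC903 resident against untreated cells was lost without library 6 (0.0501), with no filter on low counts (0.13) and without libraries 7, 8 and 15 together (0.179).

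Egr3 (ENSMUSG00000033730.4, GRCm38 chromosome 14, 70077203 to 70082614, transcribed from the plus strand) was ordered in steps, at 434, 381, 409.7, 420.3 and 395 CPM in untreated, 175, 182, 234, 341 and 253 CPM in MC903 resident and 72.9, 142, 93.6 and 94.7 CPM in bone marrow libraries. No library of a group overlapped with another group. In bone marrow cells Egr3 fell 2.35-fold against MC903 resident cells (-1.23 ± 0.222 (SE), edgeR adjusted p = 0.00348) and 4.04-fold against untreated cells (-2.02 ± 0.229 (SE); 9.02e-06), each time called in all 14 fits without 1 library. In MC903 resident against untreated cells Egr3 changed by -0.78 ± 0.204 (SE) (edgeR adjusted p = 0.0452), and was lost in 9 of those fits (without library 1, 2, 3, 4, 5, 6, 7, 8 or 10, up to 0.164) and under both other scalings (0.0675 with DESeq2 size factors and 0.0849 with factors from genes averaging at least 10 CPM).

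Egr2, which T cells use with Egr3 to limit activation, had a wider spread. It was at 962, 555, 659, 705 and 454 CPM in untreated, 68.0, 78.8, 104, 288 and 143 CPM in MC903 resident and 1.51, 49.9, 42.8 and 132 CPM in bone marrow libraries, and bone marrow library 11 stood far below the others of its group. Untreated libraries lay above all others. Egr2 was 11.8-fold lower in bone marrow than in untreated cells, a log2 change of -3.56 ± 0.917 (SE) (edgeR adjusted p = 0.0381), and this call was lost without library 1, 2, 3, 4, 10, 13 or 14 (up to 0.116) and with no filter on low counts (0.0875). The difference between MC903 resident and untreated cells, -2.29 ± 0.792 (SE), did not pass (edgeR adjusted p = 0.203). It passed without library 11 (0.00992), in edgeR fitted to these 2 groups (0.000992), in DESeq2 (0.0478) and in limma (0.000373).

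Of the Krüppel-like zinc finger factors, Klf6 fell in each of the 3 comparisons, and Klf2 and Klf4 fell in bone marrow cells. The family's median log2 fold change was -0.85, -1.56 and -2.55 in the 3 comparisons, in the order used above, where those of all genes were 0.24, -0.28 and -0.14. Klf6 (ENSMUSG00000000078.7, GRCm38 chromosome 13, 5861482 to 5870394, transcribed from the plus strand) was at 4675, 5946, 5225, 5503 and 5549.9 CPM in untreated, 1919.6, 1915, 2348, 3389.6 and 3966 CPM in MC903 resident and 1204, 990.2, 704 and 786 CPM in bone marrow libraries. The groups did not overlap, with untreated cells highest and bone marrow cells lowest. Its log2 fold change was -0.99 ± 0.202 (SE) in MC903 resident against untreated cells (edgeR adjusted p = 0.00778), -1.56 ± 0.221 (SE) in bone marrow against MC903 resident cells (0.000381) and -2.55 ± 0.231 (SE) in bone marrow against untreated cells (9.06e-07), the last being 5.84-fold. All 3 calls stood in every fit without 1 library, and the first was lost without libraries 7, 8 and 15 together (0.111).

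Klf2, known for holding lymphocytes in quiescence and as a flow-responsive factor of endothelium, was at 664, 1545, 1142, 1289.5 and 622 CPM in untreated, 540.0, 470.3, 795, 1484 and 1396 CPM in MC903 resident and 176, 48.8, 61.5 and 182 CPM in bone marrow libraries (ENSMUSG00000055148.7, GRCm38 chromosome 8, 72319033 to 72321656, transcribed from the plus strand). Untreated and MC903 resident libraries overlapped throughout, and all bone marrow libraries were below them. Klf2 was 8.01-fold lower in bone marrow cells than in MC903 resident ones, -3.0 ± 0.509 (SE) on the log2 scale (edgeR adjusted p = 0.00505), and 9.0-fold lower than in untreated cells (-3.17 ± 0.513 (SE); 0.00134). Between treated and untreated resident cells the edgeR adjusted p was 0.939. Whether Klf2 and Klf6 differ in their response was not tested.

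Klf4, a regulator of epithelial barrier genes and of pluripotency, was less abundant, at 86.5, 106, 117, 97.2 and 136 CPM in untreated, 22.1, 95.3, 40.2, 90.1 and 53.2 CPM in MC903 resident and 18.1, 15.9, 21.3 and 51.9 CPM in bone marrow libraries. Bone marrow and untreated libraries did not overlap, while the MC903 resident libraries overlapped with both. Klf4 fell by 2.02 ± 0.406 (SE) in bone marrow against untreated cells (edgeR adjusted p = 0.00307). Against MC903 resident cells it missed the threshold in edgeR, where library 15 held 51.9 CPM where the rest of its group held 15.9 to 21.3 CPM (adjusted p = 0.129 with that library and 0.0115 without). It also passed with no filter on low counts (0.0424) and in DESeq2 (0.03).

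**Figure D3:**
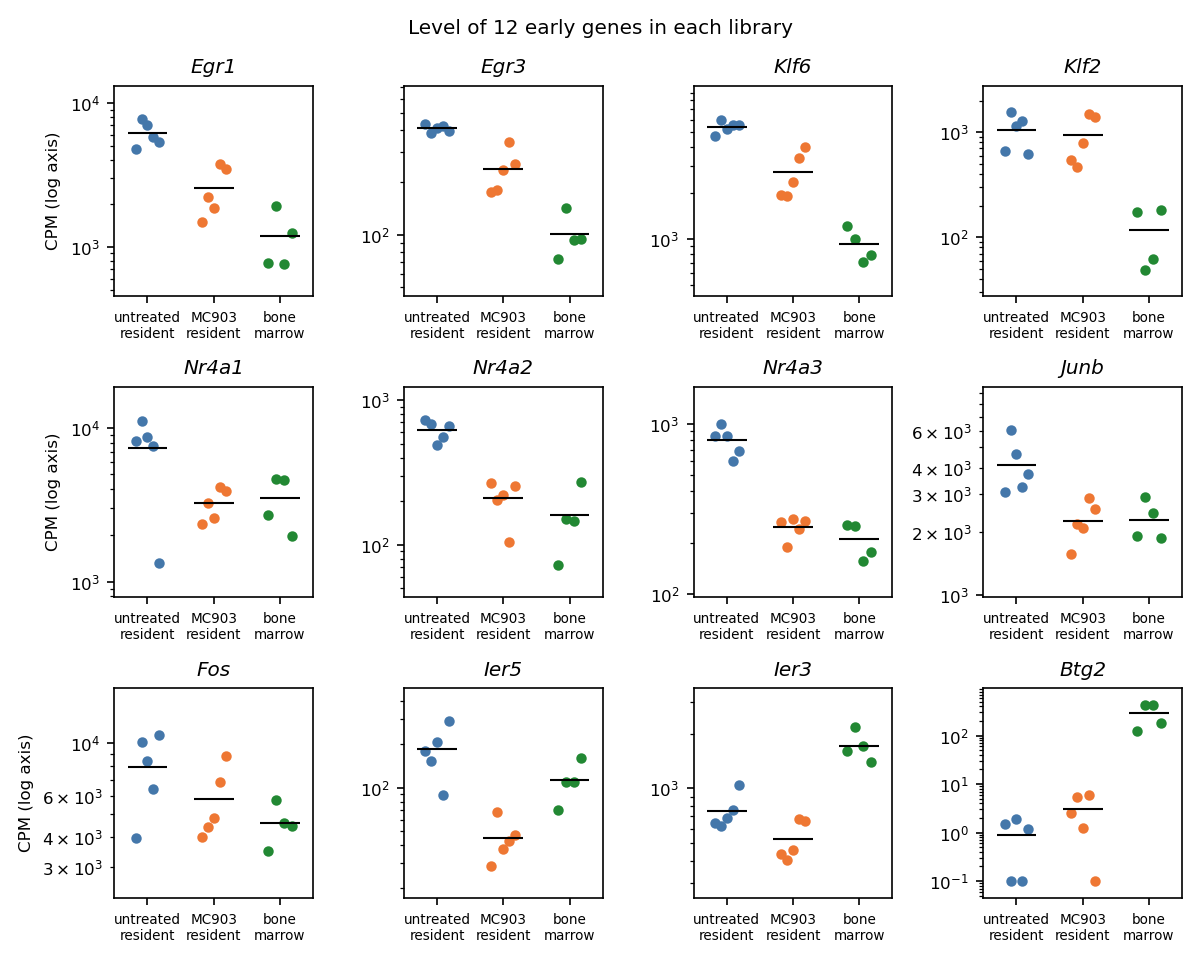
Level of 12 members in each library, in CPM on log axes whose ranges differ between panels. Points are libraries in the order of their numbers, bars are group means, and libraries at 0 are drawn at 0.1 (Btg2). Egr3 and Klf6 step down over the 3 groups without overlap, Nr4a2 and Nr4a3 separate untreated libraries from the rest, Nr4a1 does so except for library 5, and Ier3 and Btg2 are highest in bone marrow libraries.

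AP-1 is a dimer of Fos and Jun proteins, with Atf3 and the small Maf protein Maff as further leucine zipper partners. Of the 9 genes of the group, 1 was lower in MC903 resident than in untreated cells (Junb; 1.68% of all genes), 0 differed between the MC903 groups (2.27%) and 4 were lower in bone marrow than in untreated cells (Fosb, Jun, Junb and Atf3; 3.37%). Of the 9, in bone marrow against MC903 resident cells, 2 had an unadjusted p under 0.05 in edgeR (Fosb and Fosl2), DESeq2 called 1 (Fosb) and limma 0. The median log2 fold change of the 9 was -0.67, -0.34 and -1.10 in the 3 comparisons.

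Junb was at 3082, 6019.9, 4640.1, 3257 and 3748 CPM in untreated, 1567, 2160.0, 2088, 2878 and 2563 CPM in MC903 resident and 1899, 2901, 2434 and 1869 CPM in bone marrow libraries. Its lowest untreated library was above all others, and the MC903 groups overlapped. Junb fell 1.84-fold in MC903 resident cells (-0.88 ± 0.202 (SE), edgeR adjusted p = 0.0191), a call lost without library 2, 3, 6, 7 or 8 (up to 0.0915), and 1.82-fold in bone marrow cells (-0.87 ± 0.217 (SE); 0.0161). Prdx2 overlaps Junb on the opposite strand, at 121 CPM on average against 2936 CPM for Junb, and whether the counting used strand is not given in the sources used here.

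Jun, the main Fos partner, was at 2716, 5351, 4457, 3193 and 3267 CPM in untreated, 1605, 1857, 1517, 2504 and 2479 CPM in MC903 resident and 935, 2017, 2216 and 947 CPM in bone marrow libraries. Untreated libraries were again above the rest. Jun fell 2.48-fold in bone marrow against untreated cells (-1.31 ± 0.272 (SE), edgeR adjusted p = 0.00388), a call lost with no filter on low counts (0.0567). In MC903 resident cells the difference of -0.93 ± 0.250 (SE) just missed the threshold (0.0556) and passed it without library 11, 13, 14 or 15 (down to 0.0179), in edgeR fitted to these 2 groups (0.0164), in DESeq2 (0.0338) and in limma (0.0075).

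Fosb was at 796, 1079, 826, 1230.0 and 709 CPM in untreated, 399, 447, 751, 666 and 899 CPM in MC903 resident and 405, 543, 361 and 335 CPM in bone marrow libraries. Bone marrow and untreated libraries did not overlap, and the MC903 resident libraries reached into both. It fell by 1.17 ± 0.242 (SE) in bone marrow against untreated cells (edgeR adjusted p = 0.00371), called in all 14 fits without 1 library. Fos, the most abundant member per length, was at 3955, 10099, 8436, 6423 and 10813 CPM in untreated, 3997, 4445, 4816, 6873 and 8803 CPM in MC903 resident and 3503, 5782, 4584 and 4468 CPM in bone marrow libraries. The 3 groups overlapped, with untreated library 1 below every library of treated mice but library 11. Its log2 differences from untreated cells, -0.46 ± 0.247 (SE) in MC903 resident and -0.79 ± 0.265 (SE) in bone marrow cells, did not pass (edgeR adjusted p = 0.487 and 0.0795). The second passed without library 1 (0.0105), with DESeq2 size factors (0.0459), among genes averaging at least 10 CPM (0.0377) and in DESeq2 (0.0245).

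Atf3, a repressor induced by cell stress, turned on library 15. It was at 927, 819.5, 886, 974 and 1452 CPM in untreated, 333, 376, 172, 264 and 345 CPM in MC903 resident and 163, 102, 109 and 719 CPM in bone marrow libraries, and library 15 held over 4 times the level of the other bone marrow libraries. Untreated libraries were above all others. With all libraries Atf3 was lower in bone marrow than in untreated cells, with -1.89 ± 0.523 (SE) on the log2 scale (edgeR adjusted p = 0.0446), a call lost without any 1 of 11 libraries (1 to 6, 9 to 11, 13 and 14, up to 0.171), under both other scalings (0.0677 and 0.0815), with no filter (0.155) and with only these 2 groups (0.0567), and the difference of -1.76 ± 0.481 (SE) in MC903 resident cells did not pass (0.082), though it did in limma (0.000214) and with only these 2 groups (0.000224). Without library 15 all 3 comparisons were called lower, with log2 fold changes of -1.77 (edgeR adjusted p = 2.00e-05), -1.25 (0.00597) and -3.01 (1.88e-07). Jund, Fosl2, Fosl1 and Maff were not called with all libraries. Jund ranged from 169 to 508 CPM in untreated, 227 to 418 in MC903 resident and 163 to 296 in bone marrow libraries, and passed in bone marrow against untreated cells without library 5 (0.131 with it and 0.0152 without) and with no filter on low counts (0.049). Fosl1 was lower in every library of treated mice (at most 1.98 CPM) than in any untreated one (from 2.70 CPM) and was called over the 3 groups by DESeq2 (adjusted p = 0.0442) but not by edgeR (0.355). Fosl1 (at most 5.50 CPM) and Maff (at most 4.27 CPM) were low, and Ccdc85b, which overlaps Fosl1 on the opposite strand, averaged 19.0 CPM.

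The Ier genes, small proteins named for their early induction, changed in different directions. Ier3, which modulates ERK signalling and cell survival, rose in bone marrow cells (ENSMUSG00000003541.6, GRCm38 chromosome 17, 35821684 to 35822923, transcribed from the plus strand). It was at 640.4, 620.5, 688, 756 and 1039 CPM in untreated, 432, 404, 454, 680.5 and 662 CPM in MC903 resident and 1596, 2186, 1701 and 1395 CPM in bone marrow libraries. All bone marrow libraries were above the rest, and the resident groups overlapped. Ier3 rose 3.26-fold against MC903 resident cells (1.71 ± 0.206 (SE), edgeR adjusted p = 5.87e-05) and 2.30-fold against untreated cells (1.2 ± 0.205 (SE); 0.000699), called in all 14 fits without 1 library. The resident groups did not differ past the threshold (0.219), though Ier3 was called lower in MC903 resident cells with no filter on low counts (0.0478).

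Ier5, a cofactor of heat shock factor 1, fell in MC903 resident cells (ENSMUSG00000056708.5, GRCm38 chromosome 1, 155096361 to 155099636, transcribed from the minus strand). It was at 181, 153, 207, 88.4 and 292 CPM in untreated, 28.8, 67.3, 37.6, 42.9 and 47.2 CPM in MC903 resident and 69.9, 109, 109.9 and 159.6 CPM in bone marrow libraries. The MC903 resident libraries were below both other groups, which overlapped with each other. Ier5 fell 4.12-fold against untreated cells (-2.04 ± 0.299 (SE), edgeR adjusted p = 0.000485) in all 14 fits without 1 library, and was 2.5-fold higher in bone marrow cells than in MC903 resident ones (1.32 ± 0.306 (SE); 0.0232). The second call was lost without library 1, 6, 8 or 9 (up to 0.114) and, at 0.0512 to 0.0583, under both other scalings, in limma and in edgeR fitted to these 2 groups.

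Ier2 was at 824, 1795, 1479, 1292 and 1291 CPM in untreated, 925, 1051, 1337, 2476 and 1737 CPM in MC903 resident and 707, 757, 902 and 629 CPM in bone marrow libraries. Every bone marrow library was below the MC903 resident ones, whose highest was library 9. Ier2 fell 2.01-fold in bone marrow against MC903 resident cells (-1.01 ± 0.258 (SE), edgeR adjusted p = 0.042), a call lost without library 8, 9, 10, 11, 13 or 15 (up to 0.0829) and in limma (0.0775). Against untreated cells the difference of -0.84 ± 0.256 (SE) missed the threshold (0.0539) and passed without library 1, 6, 7, 9 or 14 (down to 0.0143). It also passed under both other scalings (0.0243 and 0.0294), with no filter on low counts (5.94e-05), among genes averaging at least 10 CPM (0.0186), in DESeq2 (0.00868) and in edgeR fitted to these 2 groups (0.0275), though not in limma (0.0618). Ier5l, a relative of Ier5, was at 0 in most libraries and at most 3.53 CPM.

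The dual-specificity phosphatases switch MAP kinases off and are themselves induced by them. Of the 5 genes 0 were called in any comparison by edgeR fitted to all groups (at an unadjusted p under 0.05, 1 was, Dusp2 in bone marrow against untreated cells). DESeq2, limma and edgeR fitted to 2 groups called Dusp2 and no other. Of all genes 2.25%, 2.27% and 6.87% were called in the 3 comparisons. The median of the 5 between the MC903 groups was 0.07 and turned to -0.11 with DESeq2 size factors and to -0.13 with factors from genes averaging at least 10 CPM. Dusp1, which acts on p38 and JNK in the nucleus and is the most abundant per length, was at 2917, 6809.6, 4889, 3926 and 5481 CPM in untreated, 2276, 2983, 3381, 4521 and 5367 CPM in MC903 resident and 2689.6, 4702, 3228 and 3203 CPM in bone marrow libraries. The groups overlapped throughout (edgeR adjusted p = 0.592, 0.877 and 0.291 in the 3 comparisons in the order used above). Dusp6, an ERK phosphatase of the cytoplasm, stayed between 115 and 224 CPM in all 14 libraries.

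Dusp2, a nuclear phosphatase, was at 0 to 5.82 CPM in untreated, 0 to 37.4 CPM in MC903 resident and 41.4 to 96.0 CPM in bone marrow libraries. No bone marrow library overlapped with the resident ones, yet the edgeR adjusted p was 0.431 against MC903 resident and 0.156 against untreated cells. In limma with quality weights the values were 0.0212 and 0.00833. Dusp4 varied from 0 to 36.2 CPM and Dusp5, a nuclear ERK phosphatase, from 17.9 to 110.0 CPM, each with overlapping groups.

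Zfp36 and Zfp36l1 bind AU-rich elements and hasten the decay of cytokine mRNAs, and Btg1 and Btg2 are antiproliferative proteins that recruit the CCR4-NOT deadenylase. Btg1 and Btg2 rose in bone marrow cells, while edgeR called neither Zfp36 gene. Btg2 (ENSMUSG00000020423.6, GRCm38 chromosome 1, 134075170 to 134079120, transcribed from the minus strand) was at 1.47, 0, 1.88, 0 and 1.16 CPM in untreated, 2.5, 5.27, 1.23, 5.94 and 0 CPM in MC903 resident and 125, 418, 419.7 and 179.8 CPM in bone marrow libraries. It was at 0 in untreated libraries 2 and 4 and MC903 resident library 10, and all bone marrow libraries were far above the resident ones. The fitted log2 fold change was 6.58 ± 1.31 (SE) against MC903 resident cells (edgeR adjusted p = 0.0246) and 8.30 ± 1.42 (SE) against untreated cells (0.00385). The first call was lost without library 6, 8, 9, 13 or 14 (up to 0.0731) and without the filter on low counts (0.0631). The mean was 286 ± 155 CPM (SD, n = 4) in bone marrow, 2.99 ± 2.56 (SD, n = 5) in MC903 resident and 0.903 ± 0.862 (SD, n = 5) in untreated cells.

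Btg1 varied little within groups. It was at 444, 402, 452, 479 and 482 CPM in untreated, 383, 314, 289, 349 and 436 CPM in MC903 resident and 688, 761, 692 and 592 CPM in bone marrow libraries, with all bone marrow libraries above the rest. Btg1 rose 1.93-fold against MC903 resident cells (0.95 ± 0.161 (SE), edgeR adjusted p = 0.0023) and 1.51-fold against untreated cells (0.60 ± 0.161 (SE); 0.0262), the latter lost without library 2, 11, 13 or 14 (up to 0.104). Zfp36 was at 1734, 3812, 3063, 2631 and 1241 CPM in untreated, 1583, 2102, 2348, 2880.0 and 2834 CPM in MC903 resident and 1626, 2873, 1868 and 2246 CPM in bone marrow libraries. Its groups overlapped, with untreated library 5 the lowest of the 14 (edgeR adjusted p = 0.944, 0.851 and 0.718). Zfp36l1 ranged from 34.5 to 110.4 CPM and was not called by edgeR, though limma called it in MC903 resident against untreated cells (adjusted p = 0.0303).

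Of the remaining early genes, Rgs1 and Cited2 fell. Rgs1, which dampens chemokine receptor signals by speeding GTP hydrolysis on G proteins, was at 2059.7, 1554, 2221, 2662 and 3583 CPM in untreated, 1033, 1124, 996, 1345 and 1788 CPM in MC903 resident and 704, 1684, 908 and 845 CPM in bone marrow libraries. Untreated library 5 was the highest and library 2 the lowest of its group, and library 2 lay within the range of the MC903 resident and bone marrow libraries. Rgs1 fell 2.33-fold in bone marrow against untreated cells (-1.22 ± 0.265 (SE), edgeR adjusted p = 0.00556) and by 0.94 ± 0.245 (SE) in MC903 resident cells (0.0449). The second call was lost without library 1, 3, 4, 5, 6, 7, 8 or 9 (up to 0.158) and under both other scalings (0.059 and 0.069).

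Cited2, a CBP and p300 binding protein that restrains HIF-1, was at 1205, 1394, 1344, 1479 and 778 CPM in untreated, 524, 279.8, 267, 856 and 871 CPM in MC903 resident and 379, 453, 344 and 217 CPM in bone marrow libraries. Bone marrow and untreated libraries did not overlap, and untreated library 5 lay within the MC903 resident range. Cited2 fell 3.56-fold in bone marrow against untreated cells (-1.83 ± 0.336 (SE), edgeR adjusted p = 0.00148). In MC903 resident cells the difference of -1.15 ± 0.304 (SE) missed the threshold (0.0526) and passed without library 5, 9, 10 or 15 (down to 0.0214). It also passed under both other scalings (0.0369 and 0.0395), among genes averaging at least 10 CPM (0.0275), in edgeR fitted to these 2 groups (0.0465), in DESeq2 (0.00952) and in limma (0.000867), though not with no filter on low counts (0.148).

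Csrnp1, Sik1, Gadd45a, Gadd45b and Per1 were not called. Csrnp1 ranged from 358 to 905 CPM in untreated, 344 to 638 CPM in MC903 resident and 370.3 to 697 CPM in bone marrow libraries, and passed for MC903 resident against untreated cells, among the fits without 1 library, in the one without library 5 (edgeR adjusted p = 0.244 with it and 0.049 without), and also with no filter on low counts (0.0276) and in limma (0.0416). Gadd45b, a stress sensor upstream of p38 and JNK, was higher in each untreated library (386 to 537 CPM) than in any other (217 to 358 and 128 to 384 CPM) but its edgeR adjusted p was 0.218 and 0.183. Gadd45a had its highest mean in bone marrow cells (204 to 518 against 154 to 262 CPM in untreated cells) and passed without library 15 (0.0882 with it and 0.0166 without), with no filter on low counts (0.0391), among genes averaging at least 10 CPM (0.0327), in DESeq2 (0.046) and in limma (0.0285). Per1, a clock repressor, and Sik1, a kinase that holds CREB coactivators out of the nucleus, overlapped between groups. Arc was at most 7.22 CPM, in untreated library 2.

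Means were ordered from untreated over MC903 resident to bone marrow cells for 19 of the 38 members (50%), against 17.9% of all genes tested. For 10 more (26.3%, against 10.7%) untreated cells were highest and MC903 resident cells lowest. Bone marrow cells had the highest mean for Ier3, Btg1, Btg2, Dusp2, Dusp4, Dusp5 and Gadd45a. MC903 resident cells led for Ier2 and Per1, the order that held for 26.3% of all genes.

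Library 5, which held the lowest Nr4a1, was set beside the other untreated libraries as planned, since handling can induce these genes. Its departures went in both directions. Of the 38 members 11 were lower in it than in libraries 1 to 4 (Nr4a1, Per1, Jund, Csrnp1, Zfp36, Klf2, Sik1, Cited2, Egr2, Fosb and Fosl2) and 11 were higher (Fos, Atf3, Rgs1, Ier5, Ier3, Dusp4, Klf4, Zfp36l1, Dusp6, Btg1 and Fosl1), against 19.9% and 24.4% of all genes tested. Fos and Fosb lay on opposite sides, as did Klf2 and Klf4. The largest departure of an abundant member was that of Nr4a1, 2.68 below the median of libraries 1 to 4 on the log2 scale. Mast cell markers went both ways in library 5. Kit, the stem cell factor receptor of mast cells, was at 789 CPM against 1723 to 2033 CPM. Hdc and Gata2 were also below libraries 1 to 4. Cpa3 (29907 against 18809 to 22305 CPM), Cma1 (37611 against 21700 to 24964 CPM), Ms4a2 and Fcer1a were above them. Tpsb2, Mcpt4 and Slc18a2 lay within their range. The summed markers were highest in library 5 among untreated libraries, at 11.1% of TMM-scaled CPM.

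**Figure D4:**
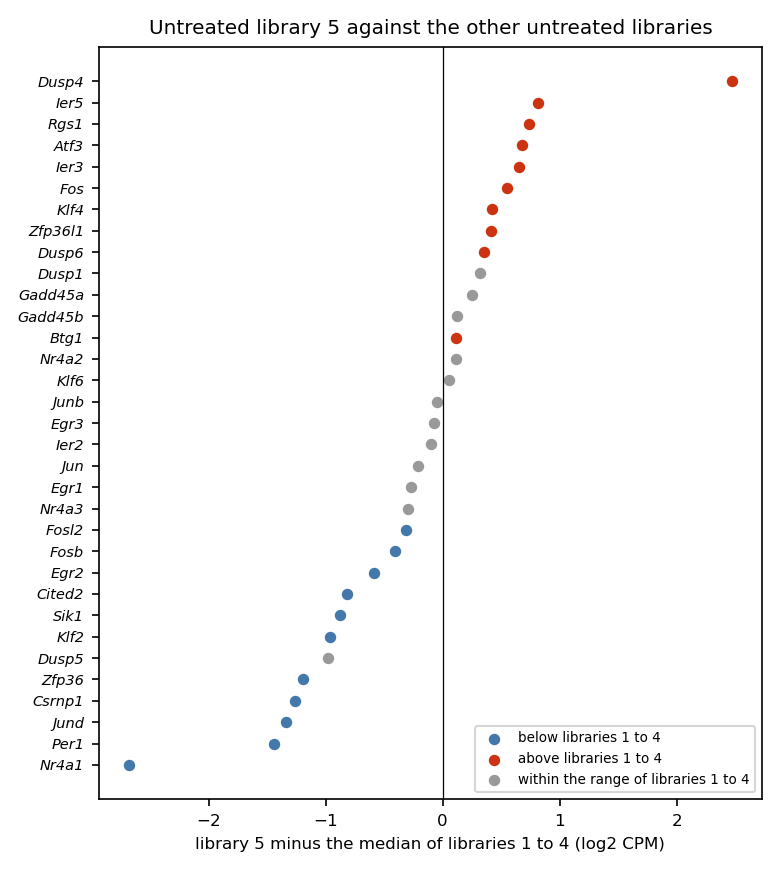
Level of 33 members (those averaging at least 10 CPM in untreated cells) in untreated library 5, as log2 CPM minus the median of untreated libraries 1 to 4. Blue points are below and red points above all 4 other libraries, and gray points lie within their range. Nr4a1 is at -2.68 and Dusp4 at 2.47, with the AP-1 genes spread on both sides of 0.

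Without library 5 the count of members called was 9 in MC903 resident against untreated cells, 8 between the MC903 groups and 18 in bone marrow against untreated cells, with 0 called higher in the first. Of the 20208 genes tested in that fit, 516, 550.0 and 1531 were called. The first comparison gained Nr4a1, Cited2 and Csrnp1 and lost Egr3 (edgeR adjusted p = 0.0561) and Rgs1 (0.117). In the second Egr1 was lost (0.0561). The third gained Nr4a1 and Jund and lost Atf3 (0.0784).

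Other libraries leaned in 1 direction. Library 2 was the highest untreated library for 17 of the 38 members (18.5% of all genes), library 9 the highest MC903 resident library for 15 (18.1%), and library 6 the lowest for 21 (20%). In the bone marrow group library 13 was highest for 18 (16.5%) and library 15 lowest for 15 (17.2%). Genes of several families were among those counted in each case.

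Defining mast cell transcripts were abundant in every library. The 10 mast cell markers, among them Kit, Cpa3, Fcer1a and Ms4a2, summed to 8.58% to 11.1% of TMM-scaled CPM in untreated, 10.6% to 16.1% in MC903 resident and 10.3% to 15.6% in bone marrow libraries, where the early gene sum was highest in untreated ones, and none was at 0 in a group. Library 15 also carried macrophage transcripts. The summed level of 10 macrophage and dendritic cell markers was 13407 CPM there and at most 393 CPM in the other 13 libraries. Lyz2 was at 4838, Cd74 at 2724, C1qb at 2262 and Csf1r at 1105 CPM, where C1qa was at 0 in every untreated library. Itgax (2.64 CPM) and Flt3 (1.27 CPM) of the same list were not raised there. Library 8 held 7.10 CPM of Itgax and library 7 held 1.68 CPM of Flt3. Of the members 7 were highest among bone marrow libraries in library 15, namely Atf3, Egr2, Klf2, Klf4, Nr4a2, Ier5 and Zfp36l1 (18.4%, against 42.3% of all genes). The part of those cells in these levels was not tested beyond leaving the library out. Summed markers of keratinocytes, fibroblasts, neutrophils, T cells and endothelium stayed at or below 84.1 CPM in all libraries, and 5 markers of basophils, some of which mast cells share, lay between 307 and 1566 CPM.

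Libraries 7, 8 and 15 had the most genes with a count (34560, 35246 and 32814, against 16025 to 28790 in the others), and total counts ranged from 13068078 to 31781926. Without these 3 libraries, members were called 5, 7 and 17 times in the 3 comparisons, of 39 tested, where 253, 339 and 1405 of 18790.0 genes were called. In MC903 resident against untreated cells Nr4a3, Nr4a2 and Ier5 were still lower, whereas Klf6 (edgeR adjusted p = 0.111), Junb (0.153), Egr1 (0.179), Egr3 (0.262) and Rgs1 (0.308) no longer passed, and Atf3 (0.00144) and Fosl2 (0.0197) did. Between the MC903 groups Btg2 (0.0509), Ier2 (0.0853), Egr1 (0.0873) and Ier5 (0.0974) were lost, while Atf3 was lower (0.00967) and Fosl2 higher (0.015). In bone marrow against untreated cells only Junb was lost (0.0638), and Gadd45a gained a call (0.0266).

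Genes that tissue digestion and heat shock are known to induce were also most abundant in untreated cells. The 20 genes of that list, chaperones, ubiquitins and metallothioneins among them, summed to 2.05% to 2.68% of TMM-scaled CPM in untreated libraries, 0.808% to 1.81% in MC903 resident libraries and 1.09% to 1.32% in bone marrow libraries. As with the members, untreated libraries lay above all others. In MC903 resident against untreated cells 6 of the 19 tested were lower (1.68% of all genes) and 0 higher (0.571%). Sqstm1, the autophagy receptor p62, fell from 8304 ± 891 CPM (SD, n = 5) in untreated to 3270.2 ± 1330.4 CPM (SD, n = 5) in MC903 resident cells (log2 fold change -1.34 ± 0.213 (SE), edgeR adjusted p = 0.000943). Pnrc1 fell by 1.80 ± 0.211 (SE) (3.8e-05) and Dnaja1, an Hsp40 cochaperone, fell by 1.22 ± 0.201 (SE) (0.00126). In bone marrow against untreated cells 9 were lower (3.37% of all genes), with Dnajb1 at -2.13 ± 0.282 (SE) (4.88e-05), and 1, Hspe1, was higher (3.49%), called in 8 of the 14 fits without 1 library. The median log2 fold change of the list was -0.68, -0.34 and -0.87 in the 3 comparisons. The part of handling in the early gene differences was not tested.

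**Figure D5:**
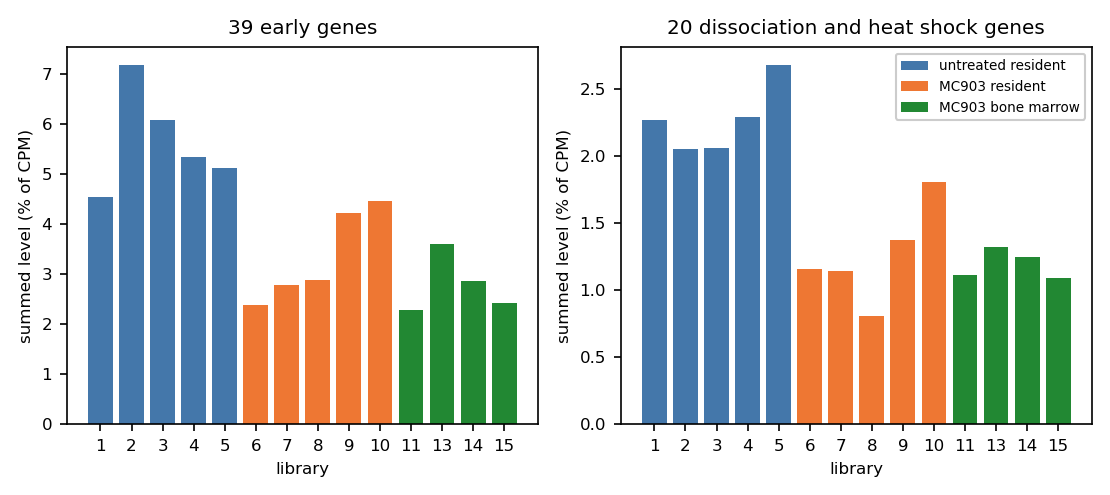
Summed level of the 39 members (left) and of the 20 dissociation and heat shock genes (right) in each library, as a percentage of CPM, with bars colored by group. Both sums are higher in each of the 5 untreated libraries than in any other library, from 4.54% on the left and from 2.05% on the right.

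Kinases and factors upstream of early genes were examined next. Of 27 genes of the inducing cascade (MAP kinases and their activators, serum response factor and its partners, CREB and NFAT factors), 3 were lower in MC903 resident than in untreated cells (1.68% of all genes) and 0 higher (0.571%). The 3 were Map2k3, an activator of p38 (-1.58 ± 0.187 (SE), edgeR adjusted p = 4.06e-05), Crem (-1.86 ± 0.235 (SE), 9.14e-05) and Nfatc1 (-0.99 ± 0.23 (SE), 0.0206). Against MC903 resident cells 2 were higher in bone marrow cells (Nfatc1 and Map2k3; 1.32% of all genes) and 0 lower (0.952%). In bone marrow against untreated cells 1 was higher, Mapk3, which encodes ERK1 (1.30 ± 0.303 (SE), 0.00986), and 3 were lower (Crem, Map2k3 and Elk4), where 3.49% and 3.37% of all genes were. Elk4 was called in 7 of the 14 fits without 1 library, Nfatc1 in 9 in the first comparison and Map2k3 in 6 between the MC903 groups. The median of the list was -0.26, 0.29 and -0.14 in the 3 comparisons, and without libraries 7, 8 and 15 the counts called became 2, 0 and 2.

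Of 23 further feedback inhibitors, 21 were tested and 8 were lower in MC903 resident than in untreated cells (1.68% of all genes), with 0 higher (0.571%). Nfkbiz, an atypical IκB protein, averaged 2962 ± 414 CPM (SD, n = 5) in untreated and 1269 ± 407 CPM (SD, n = 5) in MC903 resident cells, with a log2 change of -1.22 ± 0.207 (SE) (edgeR adjusted p = 0.00164). Rcan1, the calcineurin inhibitor that NFAT induces, fell by 2.87 ± 0.518 (SE) (0.00579). Between the MC903 groups 4 were higher in bone marrow cells, led by Rgs2 (1.36 ± 0.178 (SE), 0.00014) and the EGF receptor inhibitor Errfi1 (3.70 ± 0.457 (SE), 0.000154), and 0 were lower (1.32% and 0.952% of all genes). Against untreated cells 2 were higher in bone marrow cells (Errfi1 and Socs1; 3.49%) and 4 lower (3.37%), led by Nfkbiz (-1.60 ± 0.226 (SE), 9.5e-05), the ERK pathway inhibitor Spry2 (-1.76 ± 0.382 (SE), 0.00556) and Rcan1. Without libraries 7, 8 and 15, the 8 lower genes of the first comparison became 1 (Nfkbiz). The median of the list was -0.80, 0.77 and -0.34 in the 3 comparisons.

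Among 24 other early genes, 21 were tested. In MC903 resident against untreated cells 6 were lower (1.68% of all genes) and 0 higher (0.571%). Myc averaged 139 ± 45.6 CPM (SD, n = 5) in untreated and 9.94 ± 4.5 CPM (SD, n = 5) in MC903 resident cells, a log2 change of -3.80 ± 0.333 (SE) (edgeR adjusted p = 1.66e-06). That of Ifrd1 was -1.82 ± 0.21 (SE) (3.65e-05) and that of the survival factor Mcl1 -1.66 ± 0.279 (SE) (0.00158). Against MC903 resident cells 3 were higher in bone marrow cells (1.32% of all genes), led by Bhlhe40, a repressor linked to the clock and to cytokine production (1.67 ± 0.29 (SE), edgeR adjusted p = 0.00295), and 1 was lower (0.952%), the GTPase gene Rhob (-1.99 ± 0.415 (SE), 0.015). In bone marrow against untreated cells 9 were lower and 2, Bhlhe40 and Pim1, were higher (3.37% and 3.49% of all genes). Pim1 was called in 7 of the 14 fits without 1 library, and its groups overlapped. The median was -1.11, 0.10 and -0.78 in the 3 comparisons, and the second turned to -0.04 with DESeq2 size factors and -0.05 with factors from genes averaging at least 10 CPM. Without libraries 7, 8 and 15, Myc, Ifrd1 and Mcl1 were the 3 called lower in the first.

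Products that activated mast cells release or display went both ways. Of 26 tested, 1 was higher (Tnfrsf9; 0.571% of all genes) and 3 were lower (Tnf, Hdc and Csf1; 1.68%) in MC903 resident than in untreated cells. Csf1 was called in 8 of the 14 fits without 1 library. Tnf averaged 501 ± 105 CPM (SD, n = 5) in untreated and 126 ± 28.3 CPM (SD, n = 5) in MC903 resident cells, a log2 change of -1.99 ± 0.207 (SE) (edgeR adjusted p = 1.28e-05). Against MC903 resident cells 4 were higher in bone marrow cells (1.32% of all genes) and 1 lower (0.952%). The protease Gzmb (5.42 ± 0.786 (SE), edgeR adjusted p = 0.00365), Lif (2.25 ± 0.464 (SE), 0.0165) and Vegfa (1.86 ± 0.396 (SE), 0.0134) were among the higher, and the chemokine Ccl7 was the lower (-2.32 ± 0.281 (SE), 5.87e-05). In bone marrow against untreated cells 5 were higher (3.49%) and 5 lower (3.37%). Among these, Tnf was lower (-1.62 ± 0.221 (SE), 6.7e-05), and Lif (3.75 ± 0.489 (SE), 0.000135) and the costimulatory receptor Tnfrsf9 (5.48 ± 0.785 (SE), 0.000112) were higher. The median of the list was -0.55, 1.45 and 1.04 in the 3 comparisons.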

How the data were processed

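RNA was measured in 14 libraries of up to 100 sorted cells each, made per the labels' protocols with SMART-Seq HT and Nextera XT. The authors deposited raw read counts per gene, as whole numbers, with STAR, featureCounts and mm10 named in the submitters' processing notes. Versions, annotation and strand setting are not given in the sources used here, so genes with an antisense overlap are uncertain. Amplified reads carry no molecular identifiers and are not independent molecules.

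The members and the other lists were chosen with earlier results of these data known. All 3 groups entered 1 quasi-likelihood model (edgeR 4.0.16, R 4.3.3) with TMM scaling, after filterByExpr with a minimum count of 10 and a minimum total of 15 left 21014 genes. P-values were adjusted over all of them by Benjamini-Hochberg and called under 0.05. A test of any difference over the 3 groups used the same model. Alternatives were other scalings, other filters, DESeq2 1.42.0, limma 3.58.1 with quality weights, fits to 2 groups and fits without each library. The fits without libraries 7, 8 and 15 together were added after seeing the data. The steps were tested on simulated counts. Members were given in every library where they were called, the most abundant of their family per length or the only one of their family averaging above 10 CPM, and otherwise by ranges. Of each other list at most the 3 called genes with the lowest adjusted p per comparison and direction were named.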

Additional observations from a re-analysis of the deposited data

Results flagged for a closer look

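Within each group of 4 or 5 libraries, a library whose gap to its nearest neighbor took up most of the group's range was singled out, on CPM. Of 114 groups checked (38 genes in 3 groups), 6 had such a library (5.26%), and chance gives about 1 in 20. In untreated library 5 Nr4a1 was at 1318 CPM against 7570.3 to 11044 CPM in libraries 1 to 4. Jund was at 169 CPM in the same library against 402 to 508 CPM, and Csrnp1 at 358 CPM against 704 to 905 CPM. In untreated library 3 Fosl1 was at 2.70 CPM against 4.76 to 5.50 CPM. Ier5l was at 0.522 CPM in MC903 resident library 7 and at 0.503 CPM in bone marrow library 11, and at 0 in the other libraries of both groups.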

How the results depend on the processing

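No called member, and no called gene of the other lists that is named here with a log2 fold change, changed sign under any alternative run. Members called in MC903 resident against untreated cells were 8, with 16 in limma with quality weights, 5 without libraries 7, 8 and 15 and 4 to 11 on leaving out 1 library (4 without library 6, 5 without library 3, 7 or 8). Between the MC903 groups they were 9, and 5 to 9 on leaving out 1 library (5 without library 9). Of all genes, 473 were called in the first comparison, 1072 by DESeq2, 1358 by limma, 253 without libraries 7, 8 and 15 and 312 to 592 on leaving out 1 library. Between the MC903 groups 477 were called, 748 with no filter on low counts, 1720 by DESeq2, 2017 by limma, 315 with only the 2 groups compared and 302 to 704 on leaving out 1 library. In bone marrow against untreated cells 1443 were called, 2757 by DESeq2, 2194 by limma and 1140.0 to 1549 on leaving out 1 library. The split into higher and lower genes moved with the scaling, from 120 and 353 to 207 and 294 with DESeq2 size factors and 250 and 266 with factors from genes averaging at least 10 CPM in the first comparison, and from 277 and 200 to 167 and 242 and to 178 and 254 between the MC903 groups. The cause of these shifts was not tested. No paired analysis was possible because the labels tie no library to a mouse and give no number that pairs libraries across groups, so whether resident and bone marrow cells came from the same mice is not known. With 4 or 5 libraries a group, and no molecular identifiers, the number of libraries limits the precision.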

Other observations

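Of 21 relatives of the members within the same protein families, 3 were lower in MC903 resident than in untreated cells (Atf4, Mafk and Tob2; 14.3% called, against 2.25% of all genes) and 0 were called between the MC903 groups by edgeR. Atf4, the main factor of the integrated stress response, averaged 756 ± 114 CPM (SD, n = 5) in untreated and 307 ± 46.8 CPM (SD, n = 5) in MC903 resident cells, a log2 change of -1.30 ± 0.17 (SE) (edgeR adjusted p = 0.000135). Mafk, a small Maf protein, fell by 1.95 ± 0.299 (SE) (0.000729), and Tob2, a relative of Btg1 and Btg2, fell by 1.31 ± 0.254 (SE) (0.00506). The same 3 were lower in bone marrow than in untreated cells. The list's median in MC903 resident against untreated cells was -0.09 and turned to 0.03 and 0.07 under the other scalings.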
